A study of Mus musculus with 24 samples.

Results

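The GTPases of immunity-associated proteins (GIMAPs) are encoded in the mouse by a single cluster of 8 genes, *Gimap1*, *Gimap3*, *Gimap4*, *Gimap5*, *Gimap6*, *Gimap7*, *Gimap8* and *Gimap9*. All 8 were found by their gene symbol among the 55487 genes listed in each of the 2 deposited expression files, and each symbol stood on 1 line. The study asked how RUNX factors, their partner CTCF and the Mediator subunit Med12 act in lymphoid progenitors (LPs) before and after Notch stimulation. It used Cas9-LP, an *Ebf1*-deficient line grown from progenitors of the fetal liver that carry a Cas9 knock-in at Rosa26, so every group lacked *Ebf1* and expressed Cas9. The cells grew on mitomycin C-treated OP9 stroma with SCF, Flt3L and IL-7 and received an sgRNA from a retrovirus that also encoded the surface marker hNGFR. Sorted hNGFR+CD45+ cells were profiled 5 days after transduction by QuantSeq, which reads the 3' end of polyadenylated mRNA.

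There were 24 libraries in 8 groups of 3. In experiment 1, LPs on OP9 and Phase 1 cells on OP9-DLL4, stroma that displays the Notch ligand DLL4 and stimulated them for 2 days, carried sgControl (against luciferase) or sgCbfb, which targets the common partner that RUNX factors need to bind DNA. In experiment 2, LPs on OP9 carried sgControl, sgCbfb, sgCTCF or sgMed12. All groups come from 1 kind of established line rather than from animals, and the sort selects transduced cells and not edited ones.

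GIMAP proteins are small GTPases found mainly in lymphocytes, where several sit on membranes of organelles such as lysosomes, mitochondria or the Golgi apparatus. They are known for controlling the survival of lymphocytes, and loss of *Gimap5* leads to a shortage of T cells in mice and rats. Most of what is known of them comes from T and B cells rather than from progenitors.

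The cluster lies on chromosome 6 (GRCm38, 48647234 to 48770851) and spans 123.6 kb, in the order *Gimap8*, *Gimap9*, *Gimap4*, *Gimap6*, *Gimap7*, *Gimap1*, *Gimap5* and *Gimap3*. *Gimap6* and *Gimap3* are on the minus strand and the other 6 on the plus strand. *Gimap1* (48739054 to 48743795) and *Gimap5* (48746197 to 48754210) are the closest neighbours, 2401 bases apart. A readthrough gene, *Gm28053*, shares 81 exonic bases with *Gimap7*, 198 with *Gimap1* and 153 with *Gimap5*, and the antisense gene *Gimap1os* overlaps 1107 exonic bases of *Gimap1*. None of these overlaps lies in the last 500 exonic bases of a member. No stretch of 75 bases in the last 500 bases of any transcript was shared between 2 members, whereas 511 of 1709 such stretches over the transcripts of *Gimap1* (29.9%) were shared with *Gimap1os*, *Gm10310* or *Gm28053*, so the counts of *Gimap1* are less certain than those of the others.

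Promoter windows are given for *Gimap9*, the most abundant member, for *Gimap1*, the next, and for *Gimap6* and *Gimap5*, the members whose levels passed the test below with sgCbfb or sgCTCF. The windows run from 250 bases before to 50 bases after the start site and are RefSeq sequences of GRCm38.p6, written 5' to 3' in the direction of the gene, with capitals for letters that match the RUNX motif on either strand:
*Gimap9* (chr6:48675885-48676184, + strand): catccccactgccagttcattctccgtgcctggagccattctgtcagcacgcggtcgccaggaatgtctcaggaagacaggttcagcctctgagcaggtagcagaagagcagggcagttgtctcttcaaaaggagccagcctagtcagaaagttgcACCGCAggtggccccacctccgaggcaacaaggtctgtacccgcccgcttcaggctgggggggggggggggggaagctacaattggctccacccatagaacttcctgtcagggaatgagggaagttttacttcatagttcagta
*Gimap1* (chr6:48738797-48739096, + strand): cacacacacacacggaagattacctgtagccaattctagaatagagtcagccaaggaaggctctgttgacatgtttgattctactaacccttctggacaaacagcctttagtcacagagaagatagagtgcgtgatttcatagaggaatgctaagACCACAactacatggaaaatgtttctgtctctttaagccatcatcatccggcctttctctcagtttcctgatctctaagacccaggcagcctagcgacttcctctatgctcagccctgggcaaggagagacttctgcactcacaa
*Gimap6* (chr6:48708195-48708494, - strand): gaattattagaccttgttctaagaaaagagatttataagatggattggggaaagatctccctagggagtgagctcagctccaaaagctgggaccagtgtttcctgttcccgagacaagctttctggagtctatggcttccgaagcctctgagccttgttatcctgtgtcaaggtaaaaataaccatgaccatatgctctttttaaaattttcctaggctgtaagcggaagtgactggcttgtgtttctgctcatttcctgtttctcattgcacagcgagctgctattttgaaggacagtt
*Gimap5* (chr6:48745947-48746246, + strand): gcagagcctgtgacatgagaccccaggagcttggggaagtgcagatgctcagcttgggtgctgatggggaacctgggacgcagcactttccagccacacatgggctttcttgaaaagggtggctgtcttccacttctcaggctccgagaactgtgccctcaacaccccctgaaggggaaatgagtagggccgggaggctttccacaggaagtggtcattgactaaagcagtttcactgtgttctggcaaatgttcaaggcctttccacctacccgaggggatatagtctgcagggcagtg

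The RUNX letters searched were TGTGGT and TGCGGT on both strands, and 22.4% of all 32851 windows in the RefSeq table held at least 1 match. They occurred in 4 of the 9 windows of the family, since *Gimap8* has 2. The matches start at -95 in *Gimap1*, -145 in *Gimap4*, -79 in *Gimap7* and -94 in *Gimap9*, relative to the start site and all on the strand opposite to the gene. The *Gimap9* match shares 2 letters with an E-box (CAGGTG, in 20.2% of all windows) at -90. *Gimap6* and *Gimap5* held none of the RUNX letters in this window. The letters TGGGAA, bound by the Notch cofactor RBPJ, were found only in *Gimap3* among the family (25.6% of all windows). CCGGAA, a form of the ETS motif, was found in no member (14.9%), and other forms of the ETS motif were not searched.

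Between 1363263 and 1743319 reads fell on genes in each library of experiment 1 and between 3354483 and 4326782 in experiment 2, so the upper limit behind a count of 0 was 1.72 to 2.20 and 0.693 to 0.894 CPM, respectively (CPM, a gene's reads scaled to a common library total). These limits and all counting intervals cover counting error only. The replicates were independent samples by the description of the experiments. Their counts differed beyond sampling noise (chi-square per degree of freedom from 2.46 to 10.7 in experiment 1 and 2.75 to 17.6 in experiment 2). *Cbfb* mRNA was 40.2 against 86.5 CPM in LPs of experiment 1 (log2 fold change -1.09, adjusted P = 0.0055, limma) and 48.4 against 114 CPM in experiment 2 (-1.23), but 53.9 against 66.5 CPM in Phase 1 cells (adjusted P = 0.59). *Ctcf* was 306 CPM with sgCTCF and 391 with sgControl (adjusted P = 0.021, limma), and *Med12* was 7.01 CPM with sgMed12 and 5.14 with sgControl (adjusted P = 0.66, limma), so its mRNA does not check the sgMed12 label. All 6 LP markers (*Flt3*, *Il7r*, *Kit*, *Cd34*, *Ptprc* and *Dntt*) were above the floor in every group, and 6 of 7 Phase 1 markers were called higher in Phase 1 cells than in LPs with sgControl. The sum of 7 myeloid markers was 500 to 576 CPM with sgCbfb against 73.7 to 91.5 with sgControl in LPs of experiment 1, 386 to 415 against 22.0 to 29.7 in Phase 1 cells and 697 to 797 against 70.6 to 85.4 in experiment 2. *Elane* had no read in any sgCbfb library, and *Mrc1* and *F13a1* were called higher in all 3 comparisons. Genes that reached 1 CPM in 3 or more libraries of an experiment were tested on log2(CPM + 1) with limma. A call required an adjusted P value under 0.05, group means that differed by more than 1 on the log2 scale, and over 10 CPM in 1 of the group means. With 3 libraries a side, the smallest P value of an exact permutation test is 0.1.

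*Gimap9* gave most of the reads of the family in control cells. In sgControl LPs of experiment 2 it had 58.8, 40.8 and 54.8 CPM in the 3 libraries, 71.6% ± 7.99 of the reads of the family (SD, n = 3). *Gimap1*, which mature lymphocytes need to survive, followed with 10.0, 13.6 and 9.50 CPM. Per kb of exon, the level of *Gimap9* was 31.3 CPM and that of *Gimap1* 3.59, *Gimap5* 1.15 and *Gimap6* 0.836, although a 3' assay counts about 1 tag per mRNA whatever its length.

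The low end of the family was close to the limit of detection. *Gimap3* had at most 2 reads in any library and could not be tested. *Gimap8*, which encodes the longest GIMAP protein, was at or below 3 reads in 3 of the 4 groups of experiment 1 and was tested only in experiment 2. Thus 6 members were tested among 13239 genes in experiment 1, and 7 among 13177 in experiment 2. *Gimap4* and *Gimap7* were tested in both but stayed under 10 CPM in every group. In experiment 2, *Gimap7* and *Gimap8* reached 1 CPM in 3 libraries only through the sgCbfb group, where they were highest. Their comparisons with sgCbfb are therefore tied to the filter.

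**Figure D1:**
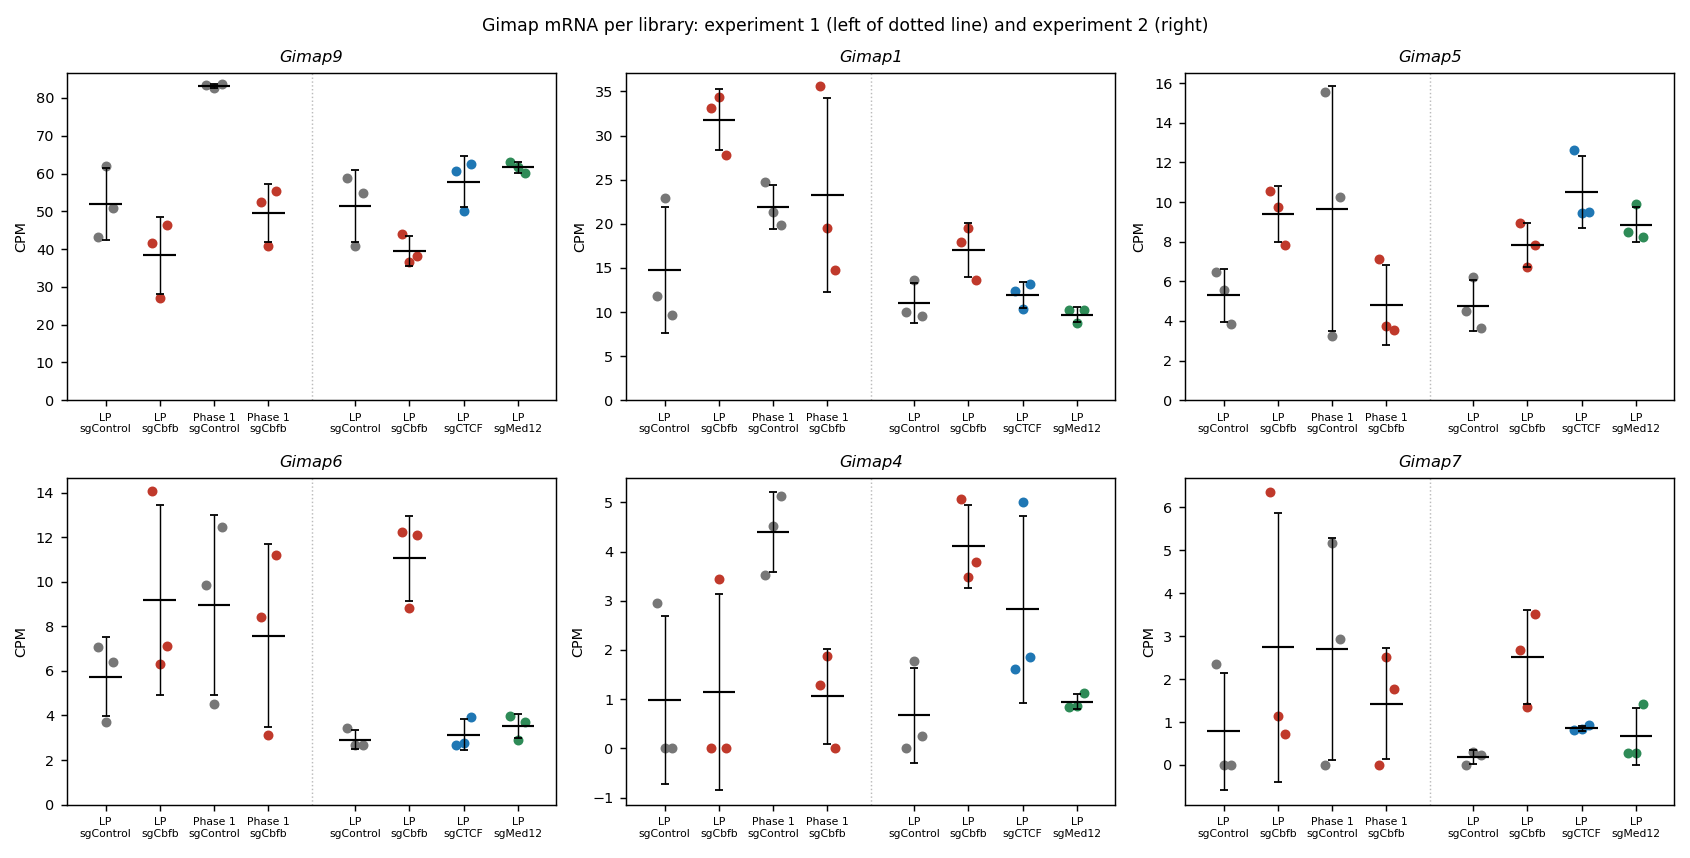
CPM of 6 *Gimap* genes in each library (points) by group, with the mean (line) and SD (bars, n = 3), experiment 1 to the left and experiment 2 to the right of the dotted line. The *Gimap6* libraries with sgCbfb in experiment 2 lie at 8.85 to 12.2 CPM, and all 9 other libraries of that experiment at or below 3.96 CPM.

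The comparison of sgCbfb with sgControl in LPs of experiment 2 asked which genes depend on RUNX activity before Notch stimulation. Of the 7 members tested, 1 was called higher (*Gimap6*) and 0 lower, while 2.67% of all genes were called higher. *Gimap6*, whose protein binds the autophagy protein GABARAPL2, had 12.2, 8.85 and 12.1 CPM with sgCbfb and 3.43, 2.66 and 2.68 CPM with sgControl. The groups were far apart, and *Gimap6* rose by 1.61 ± 0.30 on the log2(CPM + 1) scale (SE, adjusted P = 0.00034, limma with Benjamini-Hochberg adjustment), a ratio of the means of 3.78. It remained called when any 1 library was left out. In bulk samples more transcript per cell and more cells that express it cannot be told apart, and the myeloid marker sum given above moved with sgCbfb (3 of 6 tested markers called higher, *F13a1*, *Mpo* and *Mrc1*). The part of such cells in the level of *Gimap6* was not tested.

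*Gimap4* and *Gimap7* were also higher by adjusted P value, which 6.91% of all genes were, but their levels were under the 10 CPM required for a call. *Gimap4*, known from T cells as a gene that speeds up programmed cell death, had 5.07, 3.49 and 3.78 CPM with sgCbfb and 0, 1.77 and 0.243 CPM with sgControl (log2 fold change 1.75 ± 0.40, adjusted P = 0.0036, limma). *Gimap7* had 2.68, 1.34 and 3.53 CPM with sgCbfb and 0, 0.295 and 0.243 CPM with sgControl (adjusted P = 0.0064, limma). With 28 reads against 2 in the summed libraries of *Gimap7*, the ratio was 14.3 with a 95% exact binomial interval from 3.60 to 124. For both genes every sgCbfb library exceeded every sgControl library, but *Gimap7* passed the filter only through its sgCbfb libraries.

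The remaining members did not pass the test. *Gimap1* had 17.9, 19.6 and 13.6 CPM with sgCbfb (log2 fold change 0.58 ± 0.23, adjusted P = 0.12, limma), and its lowest sgCbfb library was just above its highest sgControl library. *Gimap5*, the member whose loss depletes T cells, had 8.94, 6.70 and 7.81 CPM with sgCbfb and 4.48, 6.20 and 3.65 with sgControl (0.63 ± 0.27, adjusted P = 0.15, limma). *Gimap8* had 1.49, 1.88 and 1.76 CPM against 1.32, 0 and 0 (adjusted P = 0.09, limma). *Gimap9* had the opposite sign, with 44.1, 36.5 and 38.0 CPM with sgCbfb, a log2 fold change of -0.36 ± 0.15 (adjusted P = 0.13, limma), and its groups overlapped.

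Across the 7 tested members, 6 had every sgCbfb library above every sgControl library, which 15.5% of all tested genes had. *Gimap7* and *Gimap8*, which are among the 6, passed the filter only through their sgCbfb libraries, so this count is in part set by the filter. The median log2 fold change of the 7 was 1.03, the value of *Gimap8* itself, against -0.01 over all genes. The members admitted without the sgCbfb libraries had -0.36 (*Gimap9*), 0.58 (*Gimap1*), 0.63 (*Gimap5*), 1.61 (*Gimap6*) and 1.75 (*Gimap4*). The summed level of the 8 genes was 83.9 ± 7.47 CPM with sgCbfb and 71.5 ± 6.41 with sgControl (SD, n = 3). The sum without *Gimap9* was 42.1 to 48.3 CPM with sgCbfb and 16.3 to 24.5 with sgControl, and *Gimap9* gave 46.4 to 47.7% of the family's reads with sgCbfb and 62.4 to 77.1% with sgControl. The make-up of the family's reads thus differed without overlap, and the totals stood just apart, the highest sgControl library at 78.1 CPM and the lowest sgCbfb library at 78.6 CPM.

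**Figure D2:**
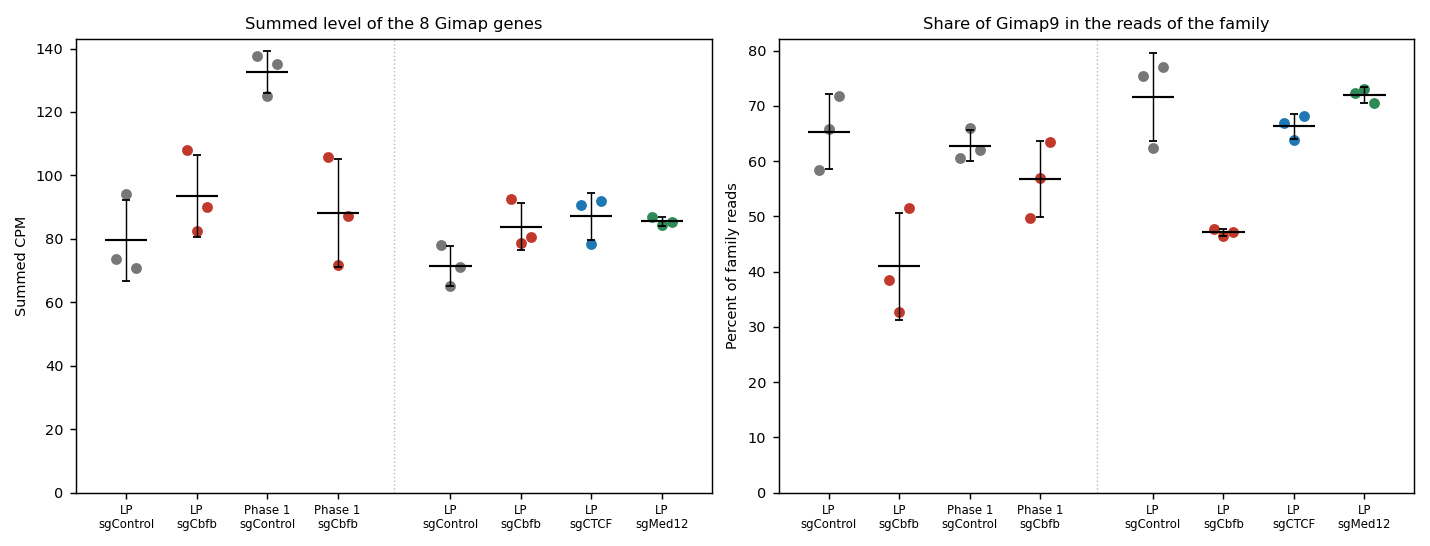
Summed CPM of the 8 *Gimap* genes (left) and the percentage of these reads that *Gimap9* gave (right), in each library (points) with mean (line) and SD (bars, n = 3) by group. The 3 sgCbfb libraries of experiment 2 lie at 46.4 to 47.7% in the right panel, below the other 9 libraries of that experiment, and the 3 Phase 1 sgControl libraries have the highest sums, 125 to 138 CPM.

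The same sgRNA in LPs of experiment 1 gave no call among the 6 members tested (limma), where 1.69% of all genes were called. At an unadjusted P value under 0.05 there was 1 member, *Gimap1*, and edgeR on the recovered reads gave 0 at an adjusted P value under 0.05. Here and below, the share of all genes that passed either of these rules was not counted, so such counts of members lack a reference. *Gimap1* had 33.2, 34.4 and 27.8 CPM with sgCbfb and 11.8, 22.9 and 9.63 CPM with sgControl. The groups did not overlap, as for *Gimap5* (2 of 6 members above, 9.11% of all genes), and the ratio of the *Gimap1* means was 2.15 (log2 fold change 1.14 ± 0.35, adjusted P = 0.098, limma). It was called without sgControl LP replicate 2 (adjusted P = 0.039) and without sgControl Phase 1 replicate 3 (adjusted P = 0.033). Over all fits that left out 1 library, its adjusted P value ran from 0.033 to 0.38 (limma) and its log2 fold change from 0.901 to 1.485.

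*Gimap6*, called in experiment 2, had 14.1, 6.31 and 7.14 CPM with sgCbfb and 7.08, 3.72 and 6.42 CPM with sgControl here, and the groups overlapped (log2 fold change 0.56 ± 0.53, adjusted P = 0.8, limma). Experiment 1 had fewer reads per library, and the 95% interval of this difference, from -0.53 to 1.65, includes the value of experiment 2. *Gimap9* again had the opposite sign, with 41.6, 27.0 and 46.4 CPM against 43.1, 61.9 and 50.7 (-0.45 ± 0.22, adjusted P = 0.44, limma). The experiments have separate sgControl libraries. The sgCbfb differences had the same sign in both for 6 of the 6 members tested in both and for 65.8% of all 12639 genes tested in both. The sign of *Gimap4* in experiment 1 was uncertain (0.06 ± 0.68, and -0.661 to 0.717 when 1 library was left out). *Gimap9* gave 32.6 to 51.6% of the family's reads with sgCbfb and 58.4 to 71.8% with sgControl. Unlike in experiment 2, the summed levels overlapped, at 82.6 to 108 CPM with sgCbfb and 70.6 to 94.1 CPM with sgControl. Without *Gimap9* they were 43.5 to 66.3 and 19.9 to 32.2 CPM.

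**Figure D3:**
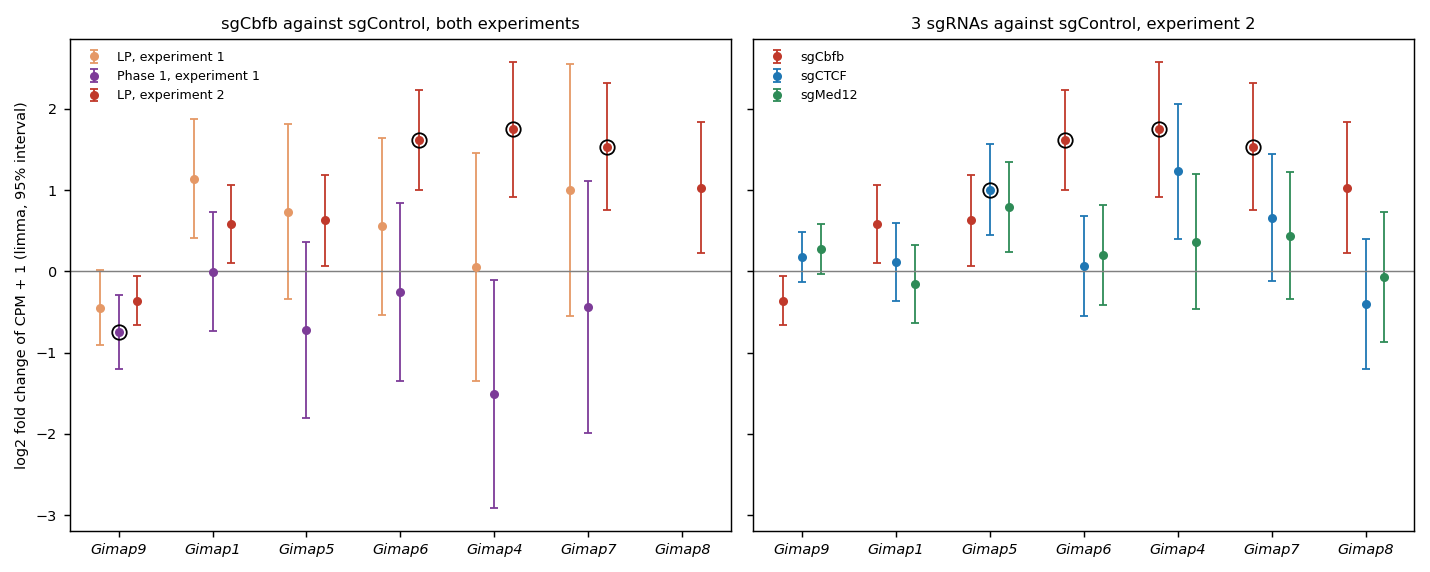
Log2 fold changes of CPM + 1 with 95% intervals (limma) for the tested *Gimap* genes, for sgCbfb against sgControl in 3 settings (left) and for 3 sgRNAs in LPs of experiment 2, which share the sgControl libraries (right). Black rings mark an adjusted P value under 0.05. *Gimap8* was not tested in experiment 1. *Gimap6* stands at 1.61 with sgCbfb, 0.07 with sgCTCF and 0.20 with sgMed12.

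Phase 1 cells were compared with LPs to ask how the family changes with Notch stimulation. With sgControl, no member of 6 was called (limma, 3.39% of all genes called), 2 had an unadjusted P value under 0.05 (*Gimap4* and *Gimap9*), and edgeR gave 1 at an adjusted P value under 0.05 (*Gimap9*). *Gimap9* had 83.3, 82.6 and 83.6 CPM in Phase 1 cells and 43.1, 61.9 and 50.7 CPM in LPs. The Phase 1 libraries lay above all LP libraries and were close to one another (log2 fold change 0.69 ± 0.22, ratio 1.60, adjusted P = 0.072, limma, and 0.031, edgeR). *Gimap4* had 3.53, 4.52 and 5.13 CPM in Phase 1 cells and 2.95, 0 and 0 CPM in LPs (adjusted P = 0.14, limma), again without overlap, as 9.77% of all genes had in this direction.

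All 6 members had a positive difference, as 43.8% of all genes had, with a median of 0.65 on the log2 scale against -0.07 over all genes. The summed level of the family was 125 to 138 CPM in Phase 1 cells and 70.6 to 94.1 CPM in LPs. These Phase 1 libraries had the highest sums of all 24, although levels of the 2 experiments were scaled separately. The sum of 7 mature T cell markers was also higher there, at 85.1 to 135 CPM against 32.5 to 48.9 in LPs, with 2 of 6 tested markers called higher (*Cd3d* and *Cd3g*), and its part in the *Gimap* levels was not tested.

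With sgCbfb in Phase 1 cells no member was called (limma, 3.52% of all genes), and 2 had an unadjusted P value under 0.05 (*Gimap4* and *Gimap9*). *Gimap9* had 52.5, 40.8 and 55.4 CPM with sgCbfb, all below the 82.6 to 83.6 CPM of sgControl. The log2 fold change was -0.75 ± 0.22 and the ratio 0.596, with an adjusted P value of 0.049 (limma) and 0.021 (edgeR), short of the fold required for a call, and 2.6% of all genes were lower by adjusted P value. *Gimap4* had 1.30, 1.89 and 0 CPM with sgCbfb, also below all sgControl libraries (adjusted P = 0.24, limma), and 9.28% of all genes were lower without overlap in this comparison. Leaving out 1 library moved the adjusted P value of *Gimap9* between 0.029 and 0.22 (limma). The same Phase 1 sgControl libraries served in the comparison of Phase 1 cells with LPs, so a rise there and a fall here are not independent.

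*Gimap1* overlapped between the groups, with 35.7, 19.5 and 14.7 CPM with sgCbfb and 24.7, 21.3 and 19.8 with sgControl. *Gimap5* had 7.13, 3.77 and 3.54 CPM against 15.5, 3.23 and 10.3, and *Gimap6* 8.43, 3.14 and 11.2 CPM against 9.88, 4.52 and 12.5. All 6 differences were negative by limma, whereas 55.1% of all genes had a positive one. The median was -0.58 against 0.06 over all genes, although the difference of *Gimap1* was 0.00 and turned positive with edgeR. The summed level was 71.6 to 106 CPM with sgCbfb, below every sgControl library. Without *Gimap9* the sums overlapped, at 30.8 to 53.2 CPM with sgCbfb and 42.6 to 54.3 CPM with sgControl. The sum of mature T cell markers was 20.1 to 35.7 CPM with sgCbfb and 85.1 to 135 with sgControl, with *Cd8a* at 0 in the sgCbfb libraries and 3 of 6 tested markers called lower (*Ccr7*, *Cd3d* and *Cd3g*). Its part in the *Gimap* levels was not tested.

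The difference between the sgCbfb effects in Phase 1 cells and LPs was tested as an interaction. None of the 6 members was called (limma, 1.19% of all genes), edgeR gave 0, and 1 member, *Gimap1*, had an unadjusted P value under 0.05. Its interaction was -1.15 ± 0.50 on the log2 scale (adjusted P = 0.41, limma). All 6 values were negative, whereas 54.5% of all genes had a positive one, and the median was -1.29 against 0.06 over all genes. The 6 contrasts share libraries, and no difference between stages was shown for any member. Between Phase 1 cells and LPs that both carried sgCbfb, 0 members were called (limma, 1.19% of all genes), and 0 had an unadjusted P value under 0.05 or an adjusted one under 0.05 with edgeR.

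With sgCTCF in LPs, 1 of the 7 members was called higher, *Gimap5*, where 1.81% of all genes were. It had 12.6, 9.47 and 9.48 CPM with sgCTCF and 4.48, 6.20 and 3.65 with sgControl. Each sgCTCF library was above each sgControl library, as for *Gimap7* and 16.0% of all genes (log2 fold change 1.01 ± 0.27, ratio 2.20, adjusted P = 0.015, limma, and 0.012, edgeR). The call was lost without sgControl replicate 1 (adjusted P = 0.054), sgControl replicate 3 (0.089) or sgCTCF replicate 1 (0.093), all by limma. The sum of mature T cell markers was 101 to 125 CPM with sgCTCF against 23.4 to 34.3 with sgControl, of which only *Ccr7* was called among 4 tested markers and *Cd3e* and *Cd8a* had no read. The sum of 7 markers of natural killer and innate lymphoid cells was 26.0 to 34.5 against 4.87 to 11.3 CPM, with *Klrd1* and *Prf1* called and *Gzmb* at 0. *Pax5*, a B lineage factor, was also called higher with sgCTCF (22.0 against 8.58 CPM, adjusted P = 0.0064, limma), and *Cd79a* was at 0. The part of these markers in the level of *Gimap5* was not tested.

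The other members were not called with sgCTCF. *Gimap4* had 1.61, 5.01 and 1.85 CPM (log2 fold change 1.23 ± 0.40, adjusted P = 0.052, limma), with 1 sgCTCF library below 1 sgControl library. *Gimap6* had 2.68, 2.78 and 3.93 CPM, within 0.07 of sgControl on the log2 scale (95% interval -0.55 to 0.68). *Gimap9* had 60.6, 50.1 and 62.6 CPM and *Gimap1* 12.3, 10.3 and 13.2 CPM, and both overlapped sgControl. *Gimap8* had no read in any of the 3 sgCTCF libraries.

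With sgMed12, 0 of 7 members were called (limma, 1.03% of all genes), edgeR gave 0, and 1 had an unadjusted P value under 0.05. That member was again *Gimap5*, with 8.48, 9.88 and 8.23 CPM, each above the sgControl libraries (0.79 ± 0.27, adjusted P = 0.072, limma). *Gimap9* had 63.0, 61.6 and 60.2 CPM, also above the sgControl libraries (0.27 ± 0.15, adjusted P = 0.28, limma), and 9.33% of all genes were higher without overlap. *Gimap1* had 10.2, 8.72 and 10.2 CPM and *Gimap6* 3.96, 2.91 and 3.69 CPM, in the range of sgControl or close to it. Mitochondrial genes took 13.66, 8.44 and 11.18% of the reads with sgMed12, all above the 7.5 to 8.03% with sgControl, and their part in the values with sgMed12 was not tested.

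Direct comparisons among the sgRNAs set the pattern of *Gimap6* apart. *Gimap6* was called lower with sgCTCF than with sgCbfb (log2 fold change -1.54 ± 0.30, adjusted P = 0.00035, limma, where 3.38% of all genes were called lower). It was also called lower with sgMed12 than with sgCbfb (-1.41 ± 0.30, adjusted P = 0.0014, limma, with 2.72% of all genes called lower). For *Gimap6* the response to sgCbfb thus differed from those to sgCTCF and sgMed12 by a test of the difference. No other member was called in these comparisons. By adjusted P value alone *Gimap9* was higher with sgCTCF than with sgCbfb (0.53 ± 0.15, adjusted P = 0.0094, limma), as 11.5% of all genes were. It was also higher with sgMed12 than with sgCbfb (0.63 ± 0.15, adjusted P = 0.0035, limma), as 7.03% of all genes were.

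Other members were lower than with sgCbfb by adjusted P value alone, which 10.9% of all genes were with sgCTCF and 9.77% with sgMed12. *Gimap8* was lower with sgCTCF, with 19 reads over the sgCbfb libraries and 0 over the sgCTCF libraries (adjusted P = 0.0082, limma). Its mean with sgCbfb was 2.20-fold the sgCTCF floor of 3 reads per library, a value that leaves out the counting error of the 19 reads. *Gimap8* and *Gimap7* passed the filter only through their sgCbfb libraries, so tests of them against sgCbfb are tied to the filter. With sgMed12, *Gimap1* (-0.74 ± 0.23, adjusted P = 0.03), *Gimap4* (-1.38 ± 0.40, 0.018) and *Gimap7* (-1.10 ± 0.38, 0.048) were lower than with sgCbfb by adjusted P value (limma), and with edgeR the adjusted P value was 0.031, 0.053 and 0.13, respectively. For *Gimap5* sgCTCF and sgCbfb did not differ beyond the spread (0.38, 95% interval -0.17 to 0.94, adjusted P = 0.35, limma). Nor did *Gimap5* differ between sgMed12 and sgCTCF (-0.216, adjusted P = 0.62, limma) or between sgMed12 and sgCbfb (0.165, adjusted P = 0.74, limma). Between sgMed12 and sgCTCF, 0 members were called (limma, 4.01% of all genes), 1 had an unadjusted P value under 0.05 (*Gimap4*), and edgeR gave 0.

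**Figure D4:**
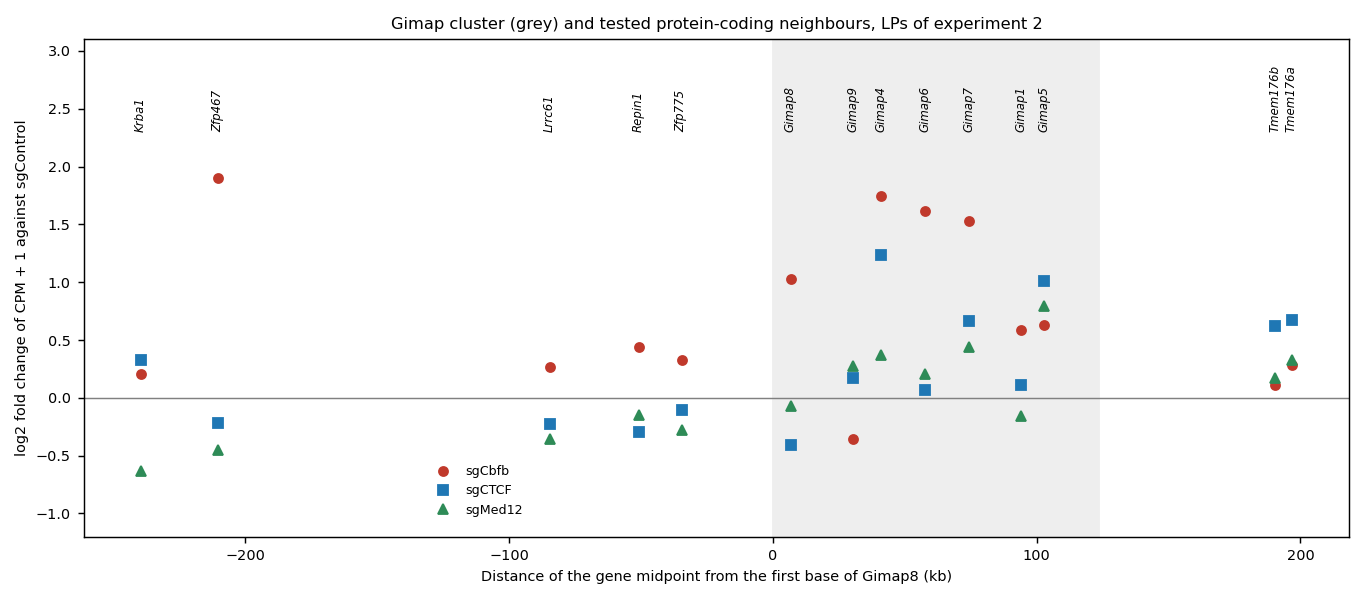
Log2 fold changes of CPM + 1 against sgControl in LPs of experiment 2 for the tested *Gimap* genes (grey region) and the tested protein-coding genes within 300 kb, by the distance of the gene midpoint from the first base of *Gimap8* in kb. Circles show sgCbfb, squares sgCTCF and triangles sgMed12, which share the sgControl libraries. With sgCbfb, *Gimap4*, *Gimap6* and *Gimap7* in the middle of the cluster lie above 1.5, *Gimap9* below 0, and the neighbours other than *Zfp467* below 0.5.

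The genes around the cluster were examined to see whether they moved with it. Within 300 kb there were 18 protein-coding genes, of which 7 were tested in each experiment. With sgCbfb in experiment 2, 1 of the 7 was called, *Zfp467*, a zinc finger gene 201.4 kb before the cluster, with 18.8 against 4.21 CPM (log2 fold change 1.90 ± 0.30, adjusted P = 5.2e-05, limma). In that comparison 2.67% of all genes were called higher. *Zfp467* was called in Phase 1 cells too (22.3 against 4.74 CPM, adjusted P = 0.0043, limma), where 3.52% of all genes were called. The median log2 fold change of the 7 neighbours was 0.29 in experiment 2. None was called with sgCTCF or sgMed12 against sgControl (limma).

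Genes tied to GIMAP function were counted from fixed lists. Of the 5 ATG8 genes, the family of *Gabarapl2*, none was called with sgCbfb in either experiment, and *Gabarapl1* was called higher with sgCTCF (101 against 36.1 CPM, adjusted P = 2.3e-06, limma). Of 8 *Bcl2* family genes, whose products set the threshold of mitochondrial cell death, *Bcl2l11* was called higher with sgCTCF (246 against 119 CPM), *Bax* with sgMed12 (86.3 against 40.7 CPM) and *Bcl2l1* with sgCbfb in Phase 1 cells (38.9 against 15.9 CPM). Of all genes, 1.81% were called higher with sgCTCF, 0.668% with sgMed12 and 1.96% with sgCbfb in Phase 1 cells. No *Bcl2* family gene was called with sgCbfb in LPs, where *Bcl2l1* in experiment 2 was higher by adjusted P value but short of the fold (40.1 against 22.2 CPM, log2 fold change 0.83, adjusted P = 0.0022, limma).

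Other GTPases of the immune system, the guanylate-binding proteins, immunity-related GTPases and Mx proteins, formed a list of 17 genes. With sgCbfb in LPs of experiment 2, 9 of the 13 tested were called higher and 0 lower, with a median log2 fold change of 2.69, while 2.67% of all genes were called higher. They included *Gbp9* (15.1 against 0.0877 CPM), *Mx1* (15.0 against 0.450 CPM), *Gbp5* (11.9 against 0.717 CPM) and *Mx2* (19.5 against 1.90 CPM). In LPs of experiment 1, 2 of 14 were called higher, *Gbp9* and *Igtp*, where 1.1% of all genes were. With sgCTCF or sgMed12 against sgControl 0 were called (limma), and the median log2 fold changes were 0.7 and 0.28. *Gbp9* was higher there by adjusted P value but under the 10 CPM required for a call. It had 1.63 CPM with sgCTCF (adjusted P = 0.011, limma) and 1.61 with sgMed12 (adjusted P = 0.023, limma). With sgCTCF, *Gbp4* (6.46 against 0.845 CPM, adjusted P = 0.00066, limma) and *Gbp3* (3.35 against 0.852 CPM, adjusted P = 0.016, limma) were also higher but under 10 CPM.

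Of 17 transcription factors of lymphoid progenitors and T cells, 4 were called higher and 1 lower with sgCbfb in experiment 2, where 2.67% of all genes were called higher and 1.65% lower. *Bcl11b*, a gene of T cell commitment, fell from 55.1 to 2.95 CPM (adjusted P = 2.3e-12, limma), and *Foxo1*, which acts in lymphocyte quiescence and homing, rose from 4.77 to 14.5 CPM (adjusted P = 0.00047, limma). With sgCTCF *Foxo1* had 25.7 CPM (adjusted P = 4.7e-06, limma). *Tcf7* and *Gata3*, early genes of the T lineage, were higher in Phase 1 cells than in LPs with sgControl (148 against 4.52 CPM and 141 against 33.2 CPM) and lower with sgCbfb in Phase 1 cells (12.7 and 43.2 CPM).

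The genes whose levels were most like the summed level of the family over all 24 libraries, after centring each experiment, were *Abcf1* (Pearson r = 0.766), *Gata3* (0.757), *Septin6* (0.752), *Dennd4a* (0.744) and *Lyst* (0.744), among 8620 genes with over 10 CPM in a group of each experiment. The libraries share the line, the culture and the groups, so these values describe the pattern only. Of 4 endothelial genes, *Cdh5*, *Kdr* and *Tek* were at or below 3 reads in each library, whereas *Pecam1*, which leukocytes also express, was above that in every group and gave nearly all of the list's sum of 60.7 to 109 CPM. The sum of 8 stromal genes was 1.43 to 25.2 CPM in experiment 1 and 2.02 to 42.1 CPM in experiment 2, with *Col3a1* and *Dcn* at 0 in every group. *Bgn*, *Col1a1*, *Col1a2* and *Sparc* were above 3 reads in all groups of experiment 2, and *Pdgfrb* was called higher with sgMed12 than with sgCbfb or sgCTCF.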

How the data were processed

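QuantSeq values of 24 libraries in 8 labelled groups were analysed. The submitters' processing notes name fastp, STAR and mm10, and the authors deposited 1 value per gene and library. The counting program, its annotation and its strand setting are not given in the sources used here. The deposited values are named TPM, but within a library they step by the value of 1 read for long and short genes alike. The deposited values are therefore CPM. Whole reads (within 0.1 read) were recovered for 100.0% of values. A last line without an identifier, which holds the value of 1 read, and a mean column of the authors for sgControl were not used.

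Genes that reached 1 CPM in 3 or more libraries were fitted with limma 3.58.1 (R 4.3.3) on log2(CPM + 1), the 4 groups of an experiment together, with Benjamini-Hochberg adjustment over all genes tested and trended variances. Calls used the thresholds of the study's methods: adjusted P under 0.05, group means more than 1 apart in log2, and 1 of the means over 10 CPM. Interactions needed the P value and the level. A group with at most 3 reads in each library was at the floor.

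The text names every member, the targeted genes, called genes within 300 kb, the 5 most similar genes, and called genes of the lists, or, where over 4 were called, the 4 with the largest change in any comparison. *Gbp3* and *Gbp4* were added because they were higher by adjusted P value with sgCTCF. Members and lists were chosen with earlier results of these data known. Alternatives were pseudocounts of 0.1 and 5, no filter, median-of-ratios scaling, fits of the compared groups alone, the replicate number as a block, adjusted P alone, edgeR 4.0.16 (quasi-likelihood test, TMM) on recovered reads, and each library left out. The fits were tested on simulated data. Positions are from GENCODE M21, and promoters from RefSeq. Tables were handled with pandas 2.3.3 and numpy 2.4.6, and plots drawn with matplotlib 3.10.9. 1 marker of the lists is not reported here.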

Additional observations from a re-analysis of the deposited data

How the results depend on the processing

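With adjusted P alone, without fold and level, the number of members called was 3 for sgCbfb in LPs of experiment 2, 1 for sgCbfb in Phase 1 cells, 3 for sgCTCF against sgCbfb and 5 for sgMed12 against sgCbfb. Leaving out 1 library gave 0 to 1 members for sgCbfb in LPs of experiment 1 and 0 to 1 for sgCTCF against sgControl. The other alternatives kept the number of calls in every comparison. Deviations of same-numbered libraries correlated from -0.038 to 0.14 (median 0.041) in experiment 1 and -0.13 to 0.216 (median 0.074) in experiment 2. For libraries with different numbers the correlations ran from -0.122 to 0.075 (median -0.02) and -0.223 to 0.143 (median -0.026). The same-numbered correlations were thus weak but somewhat higher, and whether the numbers pair the libraries was not settled. The replicate block left the counts at 1 for sgCbfb in LPs of experiment 2 and 1 for sgCTCF. Differences of members that were not called reversed sign: *Gimap1* for sgCbfb in Phase 1 cells (0.007 with a pseudocount of 5, 0.038 with edgeR), *Gimap4* for Phase 1 against LP with sgCbfb (-0.212 with edgeR) and *Gimap8* for sgMed12 (0.282 with a pseudocount of 0.1). Leaving out 1 library also turned signs of members that were not called. The log2 fold changes then ran from -0.661 to 0.717 for *Gimap4* with sgCbfb in LPs of experiment 1. With sgCbfb in Phase 1 cells they ran from -0.348 to 0.262 for *Gimap1*, -0.633 to 0.203 for *Gimap6* and -1.206 to 0.107 for *Gimap7*. For Phase 1 against LP with sgCbfb they ran from -0.166 to 0.909 for *Gimap4*, -0.627 to 0.152 for *Gimap6* and -0.896 to 0.154 for *Gimap7*. In experiment 2 they ran from -0.065 to 0.159 for *Gimap6* with sgCTCF, -0.271 to 0.335 for *Gimap8* with sgMed12 and -0.001 to 0.157 for *Gimap9* between sgMed12 and sgCTCF. The cause was not tested. Depth limits *Gimap3*, *Gimap4*, *Gimap7* and *Gimap8*, which had few reads in most libraries.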
